A study of Mus musculus with 5 samples.

Results

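Genes that drive and brake the cell cycle, and genes that copy the DNA, were examined in Neuro2A, a mouse neuroblastoma cell line. A list of 50 genes was taken, and every probe set with a single gene symbol on that list was counted as a member. This gave 107 of the 45037 probe sets that were not array controls, for 49 genes. Ccnb1, the gene of cyclin B1, matched none and is not analysed here. The study examined how gene expression depends on KDM7, the product of Kdm7a, which removes methyl groups from histone H3. It measured 5 lines with 1 Affymetrix array each. The controls were the parental cells, cells with an empty vector and cells with a knockdown vector against EGFP, a jellyfish protein that is no mouse gene. The other group held 2 stable lines, made with vectors 1 and 2 against KDM7 and called line 1 and line 2 below. All 5 are Neuro2A under standard culture, and the labels do not say whether a line is 1 clone or a pool. They also do not say that lines were cultured separately, so the p-values compare a difference only with the spread between these 5 arrays within groups. Part of that spread is estimated from the other probe sets fitted.

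A cell commits to dividing when cyclin D binds the kinases CDK4 or CDK6 and phosphorylates the retinoblastoma protein and its relatives, the pocket proteins. This frees the E2F transcription factors, which switch on cyclin E, cyclin A and the genes that load and fire replication origins. Inhibitors of the INK4 family bind CDK4 and CDK6, while p27, encoded by Cdkn1b, acts on cyclin-CDK complexes more widely. Later, CDC25 phosphatases activate CDK1, which with cyclin B carries the cell into mitosis. Many late genes share a promoter element, the cell cycle genes homology region (CHR), through which the DREAM complex keeps them silent in resting cells.

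The promoters of these genes are shown first, since the elements named above differ between replication and mitotic genes and are read without the array values. RefSeq promoters on build GRCm38.p6, reaching from 250 bases before to 50 after the gene's start, were listed for 40 of the 50 genes, with 46 starts. Both strands were searched for the E2F site, spelled TTTCCCGC, TTTGGCGC, TTTCGCGC or TTTGCCGC, and for the CHR, spelled TTTGAA. Matches to different spellings of the E2F site may overlap. An E2F spelling was found in 6 of 8 replication genes, 0 of 9 mitotic genes and 2.60% of all 27025 genes of the table. The CHR was found in 1 of 8 replication genes, 6 of 9 mitotic genes and 20.2% of all genes. CCAAT was found in 28 of the 40 member genes and 41.1% of all genes. By single promoters rather than genes, 30.4% of the 46 member promoters held an E2F spelling and 30.4% held the CHR. Over all 32851 promoters of the table these shares were 2.26% and 17.9%. A match describes the letters in these windows and is not a measured binding site.

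**Figure D1:**
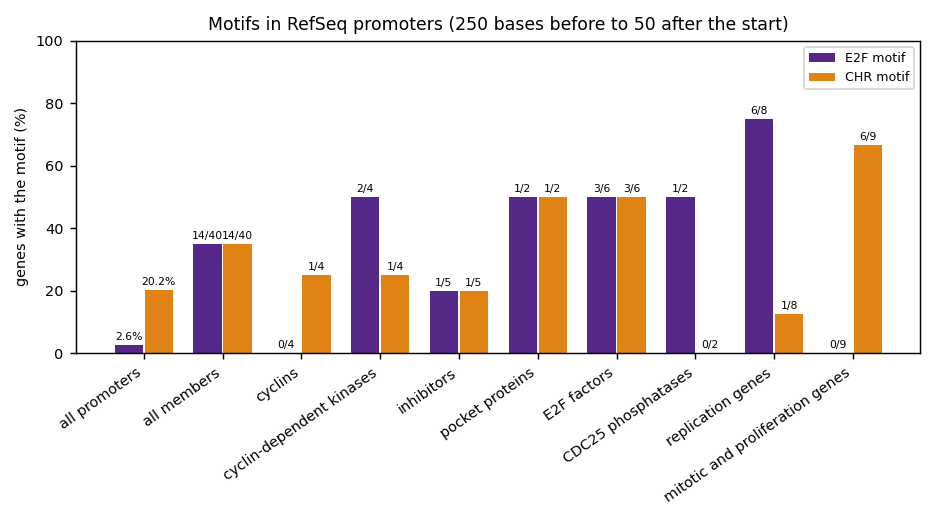
Share of genes (percent, vertical axis) whose RefSeq promoter holds an E2F spelling (purple) or the CHR (orange), for all genes of the promoter table, all member genes and each role. Numbers on the bars are genes with the motif over genes with a promoter listed, and a percent for the whole table. The replication genes had the E2F spelling in 6 of 8, and the mitotic and proliferation genes the CHR in 6 of 9.

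For the replication genes, Mcm6, a subunit of the helicase that unwinds origins, and Cdc6, which loads that helicase, stand as examples. For the mitotic genes the examples are Cdc20, which activates the ubiquitin ligase that ends mitosis, and Plk1, a mitotic kinase. E2f6 and E2f7 are shown because their signals lay on opposite sides of the controls. Capitals mark the E2F spellings and the CHR, and each line runs 5′ to 3′ on the gene's strand.
Mcm6, chr1:128359656-128359955, minus strand: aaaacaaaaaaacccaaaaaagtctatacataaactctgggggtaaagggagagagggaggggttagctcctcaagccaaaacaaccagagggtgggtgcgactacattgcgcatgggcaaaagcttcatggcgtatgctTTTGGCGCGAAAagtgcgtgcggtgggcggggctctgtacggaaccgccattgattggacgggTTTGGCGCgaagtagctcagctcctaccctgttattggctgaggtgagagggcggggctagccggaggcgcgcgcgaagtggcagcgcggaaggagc
Cdc6, chr11:98907901-98908200, plus strand: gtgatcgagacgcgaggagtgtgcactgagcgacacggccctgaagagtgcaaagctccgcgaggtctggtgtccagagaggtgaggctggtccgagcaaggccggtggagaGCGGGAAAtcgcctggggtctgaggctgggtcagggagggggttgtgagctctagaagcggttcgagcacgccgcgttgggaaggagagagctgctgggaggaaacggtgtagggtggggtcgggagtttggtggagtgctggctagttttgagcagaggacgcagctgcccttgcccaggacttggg
Cdc20, chr4:118437294-118437593, minus strand: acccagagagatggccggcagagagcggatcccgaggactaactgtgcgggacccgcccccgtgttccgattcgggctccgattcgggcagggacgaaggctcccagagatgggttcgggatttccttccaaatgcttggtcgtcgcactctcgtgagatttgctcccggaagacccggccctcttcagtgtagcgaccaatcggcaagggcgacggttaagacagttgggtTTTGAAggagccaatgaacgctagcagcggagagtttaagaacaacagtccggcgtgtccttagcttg
Plk1, chr7:122159185-122159484, plus strand: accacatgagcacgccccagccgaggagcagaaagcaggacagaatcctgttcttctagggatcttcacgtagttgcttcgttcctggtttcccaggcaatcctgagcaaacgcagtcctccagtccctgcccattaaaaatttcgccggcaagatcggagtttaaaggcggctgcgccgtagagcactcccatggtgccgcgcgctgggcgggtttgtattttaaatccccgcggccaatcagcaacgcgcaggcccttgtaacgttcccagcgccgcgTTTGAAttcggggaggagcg
E2f6, chr12:16810715-16811014, plus strand: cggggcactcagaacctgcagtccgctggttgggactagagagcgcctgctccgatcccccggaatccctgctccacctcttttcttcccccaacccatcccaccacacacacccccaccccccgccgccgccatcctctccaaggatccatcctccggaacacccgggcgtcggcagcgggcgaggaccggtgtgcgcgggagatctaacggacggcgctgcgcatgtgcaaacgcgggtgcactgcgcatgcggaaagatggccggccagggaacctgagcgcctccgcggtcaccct
E2f7, chr10:110745189-110745488, plus strand: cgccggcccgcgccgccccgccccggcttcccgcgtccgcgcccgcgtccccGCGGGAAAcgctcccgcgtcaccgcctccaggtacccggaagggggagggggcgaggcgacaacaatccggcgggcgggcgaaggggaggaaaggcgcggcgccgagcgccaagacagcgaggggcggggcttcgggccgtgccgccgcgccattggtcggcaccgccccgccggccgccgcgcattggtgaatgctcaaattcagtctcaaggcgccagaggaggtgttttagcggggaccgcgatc

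In Mcm6 a pair of overlapping E2F spellings began 110 and 106 bases before the start, and another began 47 bases before it. The spelling in Cdc6 began 138 bases before the start, on the opposite strand, and that in E2f7 began 198 bases before it. The CHR of Cdc20 began 18 bases before the start, and that of Plk1 31 bases after it. The window of E2f6 held neither.

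Signals are linear array intensities, which compare lines for 1 probe set and not probe sets with each other. Kdm7a, the targeted gene, was at 660, 648 and 872 in the controls by its brightest probe set, 1435867_at, and at 231 and 143 in lines 1 and 2 (log2 difference -1.99, SE 0.25, adjusted p = 0.128 in limma). By 1456150_at it was at 487, 611 and 665 against 130 and 136 (log2 difference -2.13, SE 0.20, adjusted p = 0.0468 in limma). The dimmer 1427359_at had a log2 difference of -1.86 (adjusted p = 0.869 in limma), so both knockdown lines lay below every control by all 3 passing probe sets while 1 passed the test. Control values are given in the order parental, empty vector, EGFP knockdown throughout, and line 1 before line 2. Neuronal and sympathoadrenal markers passed the brightness filter (a geometric mean signal of at least 40.5 over the 5 lines) for 12 of 15 genes with a probe set. Blood and Schwann or glial markers passed for 0 of 6 and 0 of 3. Fibroblast markers passed for 2 of 6 and epithelial markers for 2 of 4. The neuronal markers had both knockdown lines below every control for 5 of the 12, against 10.2% of all genes, and above for 1, against 12.7%. The 5 were Gata3 (log2 difference -1.68), Isl1 (-1.62), Chga (-0.56), Elavl4 (-0.40) and Uchl1 (-0.36), all at an unadjusted p under 0.05 in limma, and the 1 was Chgb (0.58). The controls differed widely for Gata3, at 554, 224 and 585 against 178 and 95.3 (SE 0.46). They also did for Isl1, at 1493, 545 and 1998 against 316 and 466 (SE 0.55). For both, the empty vector line lay nearest the knockdown lines. None of these markers passed after adjustment, and Stmn2, Hand2 and Phox2a overlapped. Over all neuronal markers the signals summed to 75130 to 82837 in control and 75202 to 82112 in knockdown lines, and their part in the values below was not tested. The other sums were 63.8 to 104 and 95.6 to 118 for blood, 279 to 334 and 211 to 380 for fibroblast, 170 to 489 and 290 to 760 for epithelial, and 66.9 to 198 and 113 to 148 for Schwann or glial markers.

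Of the 107 member probe sets, 81 passed the filter, for 46 genes. In limma, a linear model fitted to all 22519 probe sets that passed, 0 of the 81 differed between knockdown and control at an adjusted p under 0.05, against 0.00888% of all probe sets. Their adjusted p-values in limma lay between 0.916 and 1.00. At an unadjusted p under 0.05 there were 5 (6.17%), against 4.96% of all probe sets, and 3 without limma's trend and robust options. All 5 had the lower signal in the knockdown lines, where 2.38% of all probe sets had that. They belonged to Ccnd1 (2 probe sets), Cdkn1b, E2f6 and Cdc20. Counting each gene once, by its passing probe set of highest mean signal, left 1 of the 46 genes, E2f6, against 5.24% of all genes. Neither line passed alone, with 0 of 81 called for line 1 (0% of all probe sets), line 2 (0.00444%) and line 2 against line 1 (0.00444%). At an unadjusted p under 0.05 in limma these had 1, 2 and 0 of the 81, against 1.99%, 2.77% and 1.51% of all. The 1 of line 1 had the higher signal there, as 0.639% of all probe sets did, and the 2 of line 2 the lower, as 1.86% did. Each of these comparisons has 1 array in an arm, and every member's adjusted p in limma was 1.00, so the absence of calls there says little about the single lines. An exact permutation test of 3 against 2 arrays cannot go below a two-sided p of 0.2, so single genes are given by their values and by whether the groups overlap.

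Taking for each gene the passing probe set of highest mean signal, the median log2 difference (knockdown minus control) over the 46 genes was -0.0070. Over all 10867 genes it was 0.03. The value was below 0 for 24 of the 46, against 45% of all genes. Both knockdown lines lay below every control for 9 member genes (19.6%), against 10.2% of all genes, and above for 6 (13.0%), against 12.7%. Together 32.6% lay on one side, against 22.8% of all genes. The gap between the nearest knockdown and control lines was small, from 0.0023 (Cdc20) to 0.31 (E2f6) on the log2 scale. No member gene differed by as much as 2-fold, which 1.68% of all genes did, and the largest difference was 1.42-fold. Centring each array on its median over all probe sets, which lay near the level of the brightness filter, gave 12 member genes below (26.1%) and 0 above. This centring moved the median of all genes from 0.03 to -0.08. Under it all genes moved the same way, to 17.9% below and 5.24% above. Quantile normalization gave 7 member genes below and 6 above, and cyclic loess 9 and 5, close to the counts with the deposited scaling. Leaving out the parental, EGFP knockdown, line 1 or line 2 array gave 10 above in each case, and leaving out the empty vector array 9, as fewer lines then had to be separated. These runs gave 11 to 13 below. The members' shares in them were 19.6% to 21.7% above and 23.9% to 28.3% below, against 19.3% to 25.0% and 16.8% to 20.4% of all genes.

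**Figure D2:**
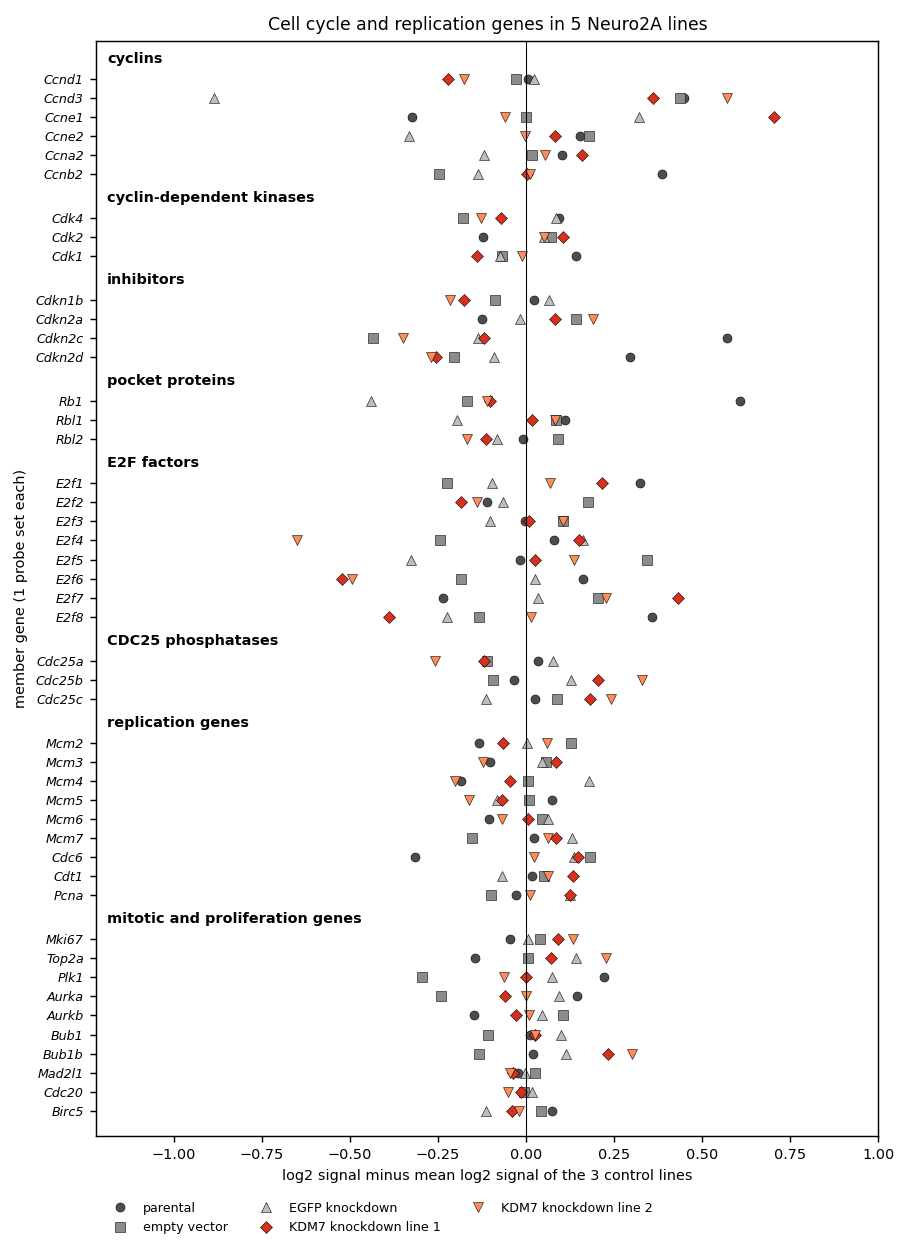
Log2 signal of each of the 46 member genes in each line, minus the mean log2 signal of the 3 control lines, by role. Grey symbols are control lines and red or orange symbols are KDM7 knockdown lines, with 1 array each and no error bars. The 9 replication and 10 mitotic genes had median ranges over the 5 lines of 0.24 and 0.23, and single ranges of up to 0.50 and 0.52. Ccnd3, Ccne1, Cdkn2c, Rb1 and several E2F genes spread most.

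Cyclin D1, the growth-factor-responsive cyclin that starts the cycle, had less signal in both knockdown lines by every one of its 3 probe sets. Ccnd1 1417420_at was at 6285, 6147 and 6361 in the controls and at 5376 and 5546 in lines 1 and 2. The controls lay close together and the groups did not overlap. Its mean was 6265 ± 109 (SD, n = 3) in control and 5461 ± 120 (SD, n = 2) in knockdown lines, 1.15-fold lower (log2 difference -0.20, SE 0.09, adjusted p = 0.916 in limma). Ccnd1 1417419_at had the larger difference, with 4510, 4367 and 4451 in the controls and 3387 and 3146 in the knockdown lines. This is 1.36-fold lower (log2 difference -0.44, SE 0.11, adjusted p = 0.916 in limma). Ccnd1 1448698_at had 4242, 4091 and 4187 against 3433 and 3609 (log2 difference -0.25, SE 0.11). Without any 1 line the log2 difference of 1417419_at was between -0.50 and -0.39, where a turn of sign was not possible because the groups did not overlap. None of the 3 passed the test over all probe sets. In RNA from whole cultures, fewer cells with a transcript and less of it per cell cannot be told apart.

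The other D-type cyclins did not show that order. Ccnd2, the cyclin D used in many neural progenitors and lymphoid cells, had 7 probe sets and none passed the filter, with signals from 0.614 to 38.5. Ccnd3, cyclin D3, was at 633, 628 and 251 in the controls and at 596 and 689 in lines 1 and 2 by 1415907_at. The EGFP knockdown line stood alone at a low level, with line 1 just below and line 2 just above the other controls. The log2 difference of 0.47 (SE 0.40) was 0.02 without the EGFP knockdown line.

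The later cyclins overlapped between the groups by the probe set used for each. Ccne1, cyclin E1, was at 714, 893 and 1115 in the controls and at 1455 and 856 in lines 1 and 2 by 1441910_x_at, a kind of probe set that may also match other transcripts. Line 1 was above every control and line 2 within them. The log2 difference was 0.32 (SE 0.26), and -0.06 without line 1. Its other probe set, 1416492_at, had the opposite sign, with 943, 768 and 1087 against 872 and 682 (log2 difference -0.26, SE 0.20). Ccnb2, cyclin B2, was highest in the parental line at 2329. The vector-carrying controls had 1501 and 1621, and lines 1 and 2 had 1784 and 1796. Its log2 difference was 0.01 (SE 0.20), a sign that turned under median centring and without the empty vector or EGFP knockdown line. Ccne2 and Ccna2, cyclins E2 and A2, had log2 differences of 0.04 (SE 0.17) and 0.11 (SE 0.12), and both signs turned under median centring. The second probe set of Ccna2, 1417911_at, was above every control in both knockdown lines, at 3383, 3426 and 3561 against 4088 and 3928 (log2 difference 0.21, SE 0.11).

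Among the kinases, Cdk6 had 3 probe sets and none passed the filter, with signals from 3.87 to 34.9. Cdk4, the other partner of the D-type cyclins, was at 7037, 5826 and 6989 in the controls and at 6275 and 6033 in the knockdown lines by 1422441_x_at. Cdk1, the mitotic kinase, was at 7500, 6485 and 6453 against 6175 and 6741, and Cdk2, the partner of cyclins E and A, at 1309, 1497 and 1478 against 1534 and 1477. The groups overlapped for all 3. Their 95% confidence intervals in limma reached from -0.36 to 0.40 on the log2 scale, so differences of that size could not be told from none with these arrays.

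**Figure D3:**
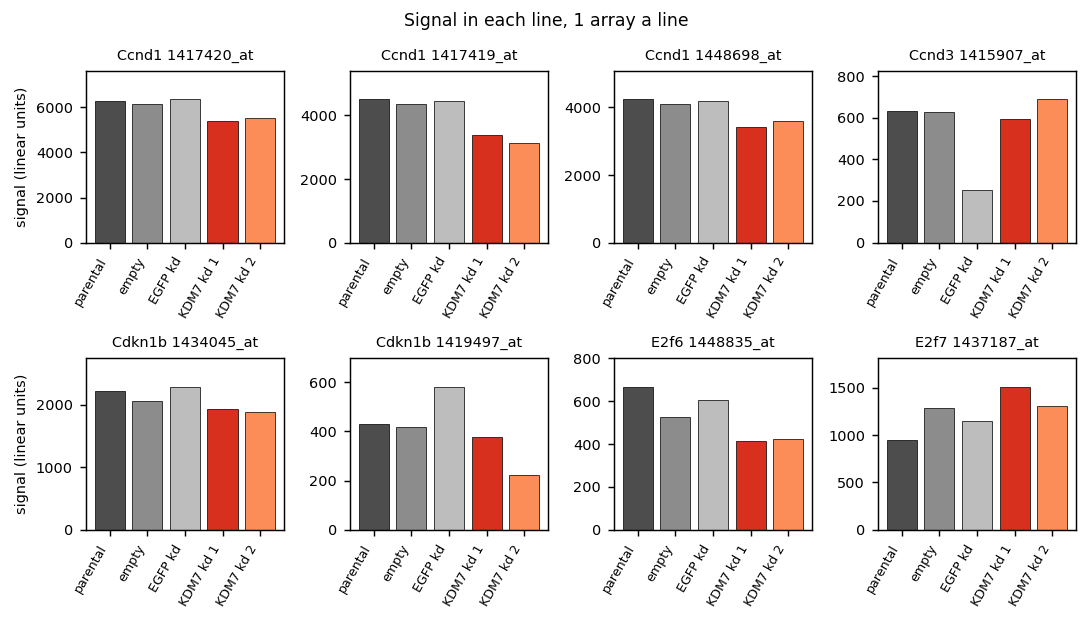
Signal (linear units, axis from 0, a separate scale for each panel) in each of the 5 lines for 8 probe sets, 1 array a line and no error bars. The 3 Ccnd1, 2 Cdkn1b and the E2f6 probe sets are lower in both KDM7 knockdown lines than in every control, E2f7 is higher in both, and Ccnd3 is low in the EGFP knockdown line alone.

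The inhibitors with a passing probe set numbered 4 of 5, with a median log2 difference of -0.22, and both knockdown lines lay below every control for 2 of them and above for 0, against 10.2% and 12.7% of all genes. Cdkn1b, encoding p27, was at 2225, 2060 and 2290 in the controls and at 1936 and 1884 in the knockdown lines by 1434045_at. The groups did not overlap, and the log2 difference was -0.20 (SE 0.13, adjusted p = 0.916 in limma). By its second probe set, 1419497_at, Cdkn1b was at 428, 418 and 581 against 376 and 224, again without overlap (log2 difference -0.70, SE 0.26). Line 2 held most of that difference, which was -0.32 without it and -1.07 without line 1. Cdkn2d, the INK4 inhibitor p19, was at 2079, 1472 and 1592 against 1419 and 1406. Its log2 difference of -0.26 (SE 0.17) was -0.12 without the parental line, where its signal was highest. An inhibitor, p27, and a driver of the cycle, cyclin D1, thus both lay below the controls.

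Cdkn2c, the INK4 inhibitor p18, was highest in the parental line at 981. It was at 490 and 602 with the control vectors and at 608 and 519 in lines 1 and 2. Line 2 lay between the vector-carrying controls and line 1 just above them. Its log2 difference of -0.23 (SE 0.28) was 0.05 without the parental line. Cdkn2a was at 1896, 2281 and 2041 in the controls and at 2189 and 2356 in the knockdown lines. This locus encodes both p16 and the p53 activator ARF in different reading frames, and its 1 probe set was not assigned to either here. Cdkn2b, encoding p15, had 1 probe set that did not pass the filter, with signals of 4.51, 4.12 and 4.32 in the controls and 34.7 and 5.35 in lines 1 and 2. Line 1 was the highest, at a level still under the filter, and the value was not tested.

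Of the pocket proteins, Rb1, the retinoblastoma gene, differed between control lines more than between the groups. It was at 447, 261 and 216 in the controls and at 273 and 272 in lines 1 and 2. Its log2 difference of -0.11 (SE 0.30) was 0.20 without the parental line. Rbl2, encoding p130, was at 197, 211 and 187 against 183 and 176, without overlap but with a gap of only 0.03 on the log2 scale (log2 difference -0.14, SE 0.21). Rbl1, encoding p107, was at 1070, 1051 and 863 against 1001 and 1047, with overlap. Its dimmer probe set 1425166_at had the knockdown lines above every control, at 114, 93.7 and 62.5 against 160 and 117 (log2 difference 0.65, SE 0.34), a gap of 0.03.

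All 8 E2F genes had a passing probe set, and 3 had groups that did not overlap, against 22.8% of all genes. E2f6, a repressor that does not bind pocket proteins, was at 668, 525 and 607 in the controls and at 416 and 424 in the knockdown lines. Its means were 600 ± 71.6 (SD, n = 3) and 420 ± 5.72 (SD, n = 2), 1.42-fold lower (log2 difference -0.51, SE 0.18, adjusted p = 0.916 in limma). This was the largest gap among the 46 genes, and the log2 difference was between -0.60 and -0.43 without any 1 line. As the groups did not overlap, leaving out 1 line could not turn its sign. E2f7, another repressor of E2F targets that acts late in the cycle, was at 951, 1290 and 1146 in the controls and at 1512 and 1312 in the knockdown lines. Here both knockdown lines were higher, but line 2 cleared the empty vector line by only 0.02 on the log2 scale. Its log2 difference was 0.33 (SE 0.17, adjusted p = 0.916 in limma), and 0.21 without the parental line.

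E2f2, an activator, was at 734, 895 and 756 against 697 and 719 by 1436434_at (log2 difference -0.16, SE 0.16), while its probe set 1455790_at overlapped between the groups. E2f8, the closest relative of E2f7, was at 1318, 938 and 882 in the controls and at 786 and 1039 in lines 1 and 2. Its log2 difference was -0.19 (SE 0.22), or 0.01 without line 1. E2f4 was at 86.1, 68.8 and 91.2 against 90.5 and 51.9, and its log2 difference of -0.25 (SE 0.36) was 0.15 without line 2. E2f5, which like E2f4 works with pocket proteins as a repressor, was at 1506, 1933 and 1213 against 1550 and 1675 by 1417444_at (log2 difference 0.08, SE 0.20). That sign turned under median centring and without the EGFP knockdown line. The activators E2f1 and E2f3 overlapped between the groups, with signals from 666 to 975 by 1417878_at and from 1585 to 1831 by 1434564_at. The second probe set of E2f1, 1431875_a_at, lay just below every control in both knockdown lines, at 806, 781 and 784 against 681 and 777.

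Of the 3 CDC25 phosphatases, both knockdown lines lay above every control for 2 and below for 1, against 12.7% and 10.2% of all genes. Cdc25b was at 846, 813 and 948 in the controls and at 998 and 1089 in the knockdown lines (log2 difference 0.27, SE 0.15). Cdc25c, which acts on CDK1 at mitosis, was at 341, 356 and 309 against 380 and 396 by 1422252_a_at (log2 difference 0.21, SE 0.18), and its second probe set, 1456077_x_at, had 0.23 (SE 0.19). Both genes had the knockdown lines above every control. Cdc25a, which acts at the entry to DNA synthesis, was at 2229, 2019 and 2297 against 2007 and 1820 (log2 difference -0.19, SE 0.13). There the knockdown lines lay below every control, line 1 by only 0.0087 on the log2 scale. By its second probe set, 1417132_at, the groups overlapped. Median centring left none of the member genes above every control, these 2 included, while quantile normalization and cyclic loess gave 6 and 5 of the 46 there.

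The replication genes differed little between the groups. All 9 had a passing probe set, and for 8 of them the groups overlapped. For 1 (11.1%) they did not, against 22.8% of all genes. The log2 differences of the 9 lay between -0.12 and 0.10, with a median of -0.0042. Their 95% confidence intervals in limma reached from -0.41 to 0.48. Over all 22 of their passing probe sets the values were between -0.35 and 0.13. Pcna, the sliding clamp of DNA polymerase, was at 14954, 14230 and 16630 in the controls and at 16613 and 15358 in the knockdown lines. Mcm6 was at 5963, 6621 and 6697 against 6449 and 6122. Cdc6 was lowest in the parental line, at 1898. It was at 2677 and 2594 with the control vectors and at 2617 and 2400 in lines 1 and 2. Cdt1, which loads the helicase with Cdc6, had the knockdown lines just above every control, at 13966, 14301 and 13152 against 15134 and 14411. Its log2 difference was 0.10 (SE 0.08), which was -0.01 under median centring. The remaining helicase subunits, Mcm2, Mcm3, Mcm4, Mcm5 and Mcm7, overlapped.

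The 10 mitotic and proliferation genes had log2 differences from -0.04 to 0.27, the highest being that of Bub1b. Their groups overlapped for 6. Both knockdown lines lay below every control for 2 (20%) and above for 2 (20%), against 10.2% and 12.7% of all genes. Mki67, the gene of the proliferation marker Ki-67, was at 5707, 6063 and 5918 in the controls and at 6278 and 6463 in the knockdown lines. Its groups did not overlap, and its log2 difference was 0.11 (SE 0.09, adjusted p = 0.921 in limma). Bub1b, a spindle checkpoint kinase relative, was at 1604, 1445 and 1713 against 1859 and 1951 by 1447363_s_at (log2 difference 0.27, SE 0.14). By 1416961_at its groups overlapped.

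Mad2l1, another checkpoint protein, was at 9765, 10113 and 9906 against 9669 and 9626, without overlap but with a log2 difference of -0.04 (SE 0.08). Cdc20 had a similarly narrow order by 1439377_x_at, at 6544, 6580 and 6682 against 6533 and 6375 (log2 difference -0.03, SE 0.09). Its dimmest probe set, 1439394_x_at, had -0.47 (SE 0.18) and its other one, 1416664_at, had 0.03 (SE 0.12), so the 3 differed in size and sign. Top2a, the topoisomerase that untangles chromosomes, was at 11058, 12273 and 13486 against 12860 and 14317, with overlap. Plk1 was at 2028, 1419 and 1829 against 1740 and 1664, and Aurka, Aurkb, Bub1 and Birc5 also overlapped.

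Other cell cycle genes, taken as 4 lists, had 0 genes called in limma. Of 41 further origin and replication genes, both knockdown lines lay above every control for 6 and below for 1, against 12.7% and 10.2% of all genes. The widest gaps were those of Pole, the catalytic subunit of a leading-strand polymerase, at 1118, 1039 and 1171 against 1323 and 1546 (log2 difference 0.37, SE 0.15), Gins3 (0.19, SE 0.18) and Gmnn, the inhibitor of Cdt1 (0.19, SE 0.10). Dbf4, which activates the origin kinase, lay below (-0.16, SE 0.10). Of 44 further mitotic genes 4 lay above and 6 below. Ttk, a checkpoint kinase, was at 1387, 1073 and 1075 against 835 and 839 (log2 difference -0.48, SE 0.17).

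Of 23 further controllers 2 lay above, Chek2 and Pkmyt1, and 3 below, Btg1, Cdc27 and Ccnh, again beside 12.7% and 10.2% of all genes. Btg1, an antiproliferative gene, had the widest gap of these lists, at 3595, 3402 and 4170 in the controls and 2373 and 2382 in the knockdown lines. Its groups did not overlap, and its log2 difference was -0.64 (SE 0.13, adjusted p = 0.869 in limma). Of 10 partners of E2F and subunits of DREAM or related complexes 0 lay above and 1 below, Lin9 (-0.23, SE 0.15). At an unadjusted p under 0.05 in limma the 4 lists had 1 gene with the higher signal in the knockdown lines, Pole, and 2 with the lower, Ttk and Btg1, against 5.24% of all genes in either direction.

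Across the 5 lines, without regard to group, the member genes varied little. The range from the lowest to the highest line had a median of 0.32 on the log2 scale over the 46 genes and of 0.52 over all genes. A range of at least 2-fold was seen for 4 of them (8.70%), Ccnd3, Rb1, Ccne1 and Cdkn2c, against 17.0% of all genes. Signal level moves with this measure, since the members had a median signal of 2070 and all genes 673. At a mean signal of 1000 or above the median range was 0.28 for 34 members and 0.37 for 4357 genes. Under 1000 it was 0.71 for 12 members and 0.66 for 6510 genes. A range of at least 2-fold was seen for 0 members and 4.04% of genes at 1000 or above, and for 33.3% of members and 25.7% of genes under it. By role the median range was 0.24 for replication, 0.23 for mitotic, 0.57 for cyclin and 0.67 for E2F genes.

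**Figure D4:**
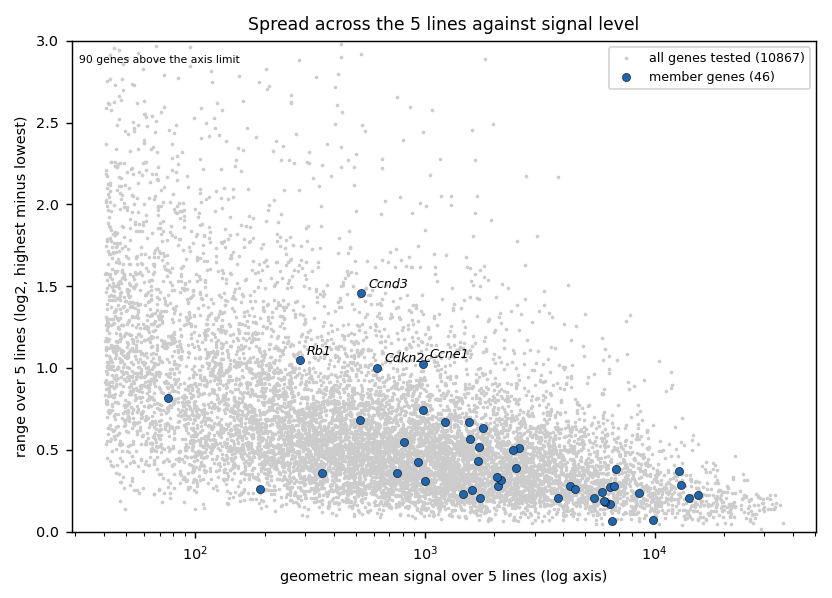
Range over the 5 lines (log2, highest minus lowest, vertical axis) against the geometric mean signal (log axis) for 46 member genes (blue) and all 10867 genes tested (grey). Most members are bright and have a low range, and Ccnd3, Rb1, Ccne1 and Cdkn2c stand at or above 1, which is 2-fold. The axis ends at 3, and 90 genes lie above it.

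The parental line was the highest for 14 of the 46 genes (30.4%, against 24.6% of all genes) and the lowest for 10 (21.7%, against 31.1%). The median deviation of the members from their 5-line mean was between 0.0001 and 0.0103 on the log2 scale in every line. By the median absolute log2 difference over the members, the 2 KDM7 knockdown lines were the closest pair, at 0.07. The other 9 pairs had 0.10 to 0.18. The same pair was the closest by that measure over all genes, at 0.14 against 0.18 to 0.27. By Pearson's correlation of log2 signal across the member genes, which are not independent replicates, the empty vector line and line 2 were the closest, at 0.9944 against 0.9939 for the knockdown pair. Line 2 minus line 1 ran from -0.80 (E2f4) to 0.40 (E2f8) on the log2 scale.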

How the data were processed

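The deposited values were MAS5 signal intensities, linear and above 0, computed by the authors per the submitters' processing notes; the MAS5 version and settings are not given in the sources used here. Each array's trimmed mean (2% off each end) was 500.0, so the arrays are scaled to 1 level, and signal over background rather than read depth limits precision. Of 45101 probe sets, 64 array controls were left out. GEO's platform annotation gave 34945 probe sets 1 symbol, 932 several and 9160 none.

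Signals were log2-transformed, and the 22519 probe sets at or above the median mean (signal 40.5) were fitted with limma 3.58.1 in R 4.3.3 (lmFit, eBayes with trend and robust options, 3 residual degrees of freedom), with Benjamini-Hochberg adjustment at 0.05 over all of them. Each line alone was fitted in a 3-group model that assumes it varies like the controls. Each gene is represented by its passing probe set of highest mean log2 signal. Genes given in full are those with non-overlapping groups, the 10 largest ranges over lines, and the brightest and dimmest of each role. Other lists name up to 3 genes each way by gap. Other probe sets of these genes were named after their values were seen. Members and lists were chosen with earlier results of these data known. Alternatives were quantile normalization, median centring, cyclic loess, other filters, an offset of 32, plain eBayes, an adjusted p under 0.1, averaged probe sets and leaving out each line.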

Additional observations from a re-analysis of the deposited data

Results flagged for a closer look

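For 3 member probe sets the knockdown lines lay on opposite sides of all 3 control lines. These are 3.7% of the 81 member probe sets, against 4.73% of all 22519. E2f5 1447625_at, a dim probe set of a pocket-protein-dependent repressor, was at 136, 164 and 134 in the controls and at 96.5 and 173 in lines 1 and 2, so line 2 minus line 1 was 0.84 on the log2 scale (SE 0.44, adjusted p = 1.00 in limma). Top2a 1442454_at was at 344, 328 and 349 against 299 and 400, a difference of 0.42 (SE 0.33). Mcm3 1420028_s_at was at 5114, 5706 and 5666 against 5819 and 5038, a difference of -0.21 (SE 0.20). None of the 3 passed limma's test of line 2 against line 1. The brighter probe sets of E2f5 and Top2a did not show this order.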

How the results depend on the processing

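No member probe set was called under any alternative that could be fitted, for knockdown against control or for either line. The median log2 difference of the member genes was 0.0036 with quantile normalization, -0.12 with median centring, 0.00085 with the filter at the 70th percentile, -0.030 with the probe sets of a gene averaged, and between -0.0055 and 0.037 without any 1 line. The count above every control was 0 with median centring, 6 with quantile normalization, 5 with cyclic loess and 9 to 10 without any 1 line. The count below was 12, 7, 9 and 11 to 13. The median range over lines was 0.42 with median centring, 0.36 with no brightness filter, 0.38 with averaged probe sets, and 0.26 to 0.31 without any 1 line. Median centring turned the sign for Ccne2 (-0.070), Ccna2 1417910_at (-0.0039), Rbl1 1424156_at (-0.061), Rbl1 1432604_at (-0.10), Ccnb2 (-0.10), E2f5 1417444_at (-0.028), Cdt1 1424143_a_at (-0.012) and 1424144_at (-0.035) and Cdc20 1416664_at (-0.078), since the median signal of the knockdown arrays was higher on average. Those medians were taken over all probe sets that were not array controls, before the filter. They were 41.3, 44.0 and 48.6 in control and 49.2 and 46.9 in knockdown arrays, near the filter's 40.5. Over the genes that passed, the median log2 signals were 9.39, 9.43 and 9.39 against 9.41 and 9.44. Quantile normalization (-0.097) and cyclic loess (-0.11) also turned Rbl1 1432604_at. Leaving out 1 line turned the sign within -0.061 to 0.70 for Ccne1 1441910_x_at, -0.13 to 0.13 for Ccne2, -0.050 to 0.10 for Rbl1 1424156_at, -0.22 to 0.24 for Rbl1 1432604_at, -0.12 to 0.20 for Ccnb2, -0.45 to 0.050 for Cdkn2c, -0.33 to 0.20 for Rb1 and -0.65 to 0.15 for E2f4. It did so within -0.082 to 0.25 for E2f5 1417444_at, -0.58 to 0.26 for E2f5 1447625_at, -0.39 to 0.014 for E2f8 and -0.015 to 0.074 for Cdc20 1416664_at. Of 58 probe sets recomputed, members and genes of the other lists together, the other 43 kept their direction. Genes named because their groups did not overlap were among them. Where groups do not overlap, leaving out 1 line cannot turn the sign, so this count is no independent check. Over all 58 the smallest adjusted p in limma under these alternatives was 0.394. Kdm7a stayed lower throughout, and the adjusted p of 1456150_at in limma ran from 0.0332 to 0.722. No paired analysis was possible because the labels number the 2 knockdown vectors and no control. With 1 array a line, a clone, a culture and a vector cannot be told apart.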
